A study of Mus musculus with 76 samples.

Results

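Liver RNA was compared between males (M) and females (F) of wild-type house mice. The comparison rests on 13 libraries of the 76 in the series, the liver libraries whose genotype label is +/+. They came from 7 males and 6 females, with 1 library per animal. Within these libraries, 11697 of the 24236 autosomal genes in the files had enough counts to be tested.

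The animals were lab-reared descendants of house mice (Mus musculus domesticus) caught in a free-living Swiss population, kept until sexually mature. They were collected as sibling pairs in which 1 animal carried the t haplotype, a variant of chromosome 17 that males pass on to most of their offspring (+/t), and the other did not (+/+). No treatment or introduced allele is given for any of these animals, and the M and F animals were not paired with each other, although 4 litters held both a +/+ male and a +/+ female. Livers of the +/t siblings (7 males, 6 females) and +/+ brains (5 males, 7 females) were used as comparison groups. Exact age, stage of the oestrous cycle and time of day at collection are not given in the labels. The liver library of M replicate 3 carries in its title an animal number that the brain and testis labels give to a +/t male, so calls, list counts and fold changes that moved when it was left out are described below.

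The liver is among the organs that differ most between the sexes in rodents. The pituitary releases growth hormone in separated pulses in male mice and more steadily in females. The hormone binds its receptor on the hepatocyte, the kinase JAK2 is activated, and the transcription factor STAT5 moves to the nucleus. In male liver each pulse gives a burst of STAT5 activity, and in female liver that activity is steadier. The repressors BCL6, known as male-biased, and CUX2, known as female-biased, act on many of the same genes. Known outputs include cytochrome P450 enzymes, sulfotransferases, major urinary proteins and steroid-metabolizing enzymes.

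The +/+ liver libraries held 8266183 to 12694655 counts in M and 11405529 to 14780543 in F. The Y-linked gene Ddx3y was at 72.3 to 99.7 counts per 1000000 (CPM) in M and at most 0.0804 CPM in F, so all 13 libraries matched their labelled sex. Replicates correlated at 0.970 to 0.986 in M and 0.976 to 0.986 in F (Pearson, log2 CPM across genes). The summed level of 12 hepatocyte markers was 97031 to 141110 CPM in M and 132726 to 176165 CPM in F. Albumin alone was at 40681 to 79649 CPM in M and 77420 to 109671 CPM in F. Gene by gene, these markers went in both directions, as described below. The 10 most abundant genes took 14.99 to 19.5% of the counts in M and 18.5 to 21.8% in F. Since whole tissue was sequenced, fewer cells of a type and less RNA per cell cannot be told apart.

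Of the 11697 autosomal genes tested, 1457 (12.5%) were called at an adjusted p of 0.05 (edgeR's quasi-likelihood test, Benjamini-Hochberg adjustment over all genes tested). In all, 706 (6.04%) were higher in M and 751 (6.42%) higher in F, and 3184 (27.2%) had an unadjusted p under 0.05. Fold changes are given as log2 of M over F ± SE, so that positive values mean higher in M. The median fold among called genes was 1.37 for those higher in M and 1.52 for those higher in F. At least 4-fold differences numbered 59 in M and 75 in F, and at least 100-fold differences 3 in M and 17 in F. Large folds were thus more numerous on the female-higher side. In 639 genes (5.46%) the lowest library of one sex lay above the highest library of the other, 312 (2.67%) with M above F and 327 (2.80%) with F above M. Of these, 626 (5.35%) were also called. With the litter as a block, which the labels allow for 4 litters shared by both sexes, 548 genes (4.68%) were called, 247 higher in M and 301 higher in F. That fit reads the sex difference only from M replicates 1 to 4 and F replicates 1, 2, 3 and 5. The other libraries are alone in their litters. It is therefore a smaller comparison than the main one, and a call lost under it does not show an effect of litter. Without the library of M replicate 3, 1419 genes were called. A test against a fold of 1.5 called 228 (1.95%), 102 higher in M and 126 higher in F. Calls were spread over every autosome, from 10% of tested genes on chromosome 11 to 15.7% on chromosome 19.

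**Figure D1:**
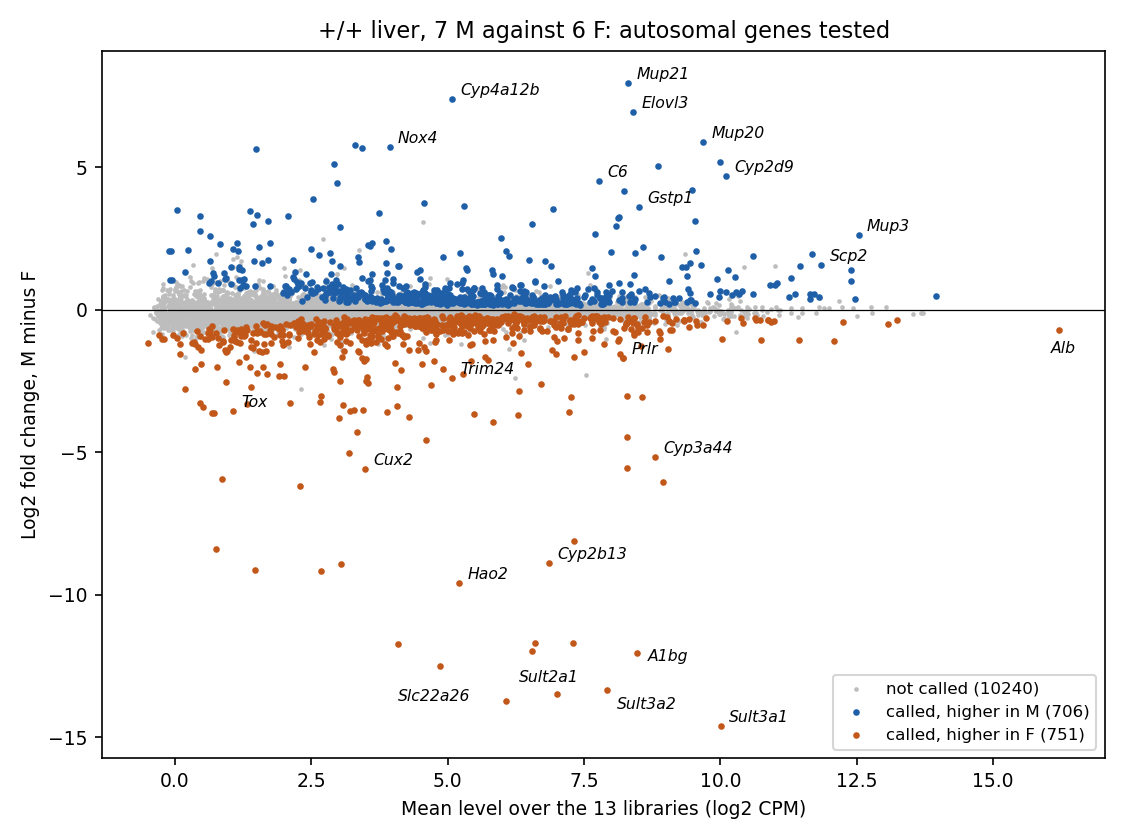
Log2 fold change of M over F (vertical axis) against the mean level in log2 CPM over the 13 libraries (horizontal axis), 1 point per tested autosomal gene, with called genes coloured by the sex in which they were higher. The 706 genes higher in M and 751 higher in F lie at low and at high levels, and all differences beyond a log2 of 10 are female-higher.

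Genes known from other mouse work as male-biased or female-biased in liver largely had the known direction here. The lists were chosen with earlier results of these data known, so the counts are a description. Over all tested genes, 6.04% were called higher in M and 6.42% higher in F. Of 52 tested genes known as male-biased, 37 were called higher in M, 1 higher in F and 14 were not called, with a median log2 fold change of 1.68, where the median of all tested genes was 0.00. Of 64 known as female-biased, 49 were called higher in F, 4 higher in M and 11 were not called, with a median of -2.75. The litter block gave 33 and 1 for the first list and 46 in F and 3 in M for the second. Without M replicate 3, 2 genes of the first list were called higher in F. The exception among the male-biased genes was Slc22a27. The 4 exceptions among the female-biased genes were Cyp2c67, Dpy19l3, Ephx1 and Spon2. In the +/t siblings, 37 of the 38 called genes of the first list and 48 of the 53 of the second had the same call.

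In the receptor and signalling chain of growth hormone, the differences that were called were small except in Prlr, Egfr and Igfbp1. Of 20 tested genes of this pathway, 2 were higher in M (Egfr, Ghr), 4 were higher in F (Igfbp1, Prlr, Ptpn6, Stat5b) and 14 were not called. With the litter block, 1 remained called in each direction. Ghr, the growth hormone receptor (chromosome 15, 3317760 to 3583492, minus strand), ran from 562 to 772 CPM in M (median 587) and from 465 to 557 CPM in F (median 512). The groups did not overlap, but the difference was small (log2 fold change 0.27 ± 0.08, edgeR adjusted p = 0.0477). It lost its call without any of 10 of the 13 libraries (M replicates 2, 3, 4 and 5 and each F replicate, with edgeR adjusted p = 0.102 at the highest) and with the litter block (edgeR adjusted p = 0.227). Jak2, the receptor's kinase, was not called, at 18.5 to 20.6 CPM in M (median 19.6) against 20.5 to 26.1 CPM in F (median 21.6), a log2 fold change of -0.18 ± 0.07 (edgeR adjusted p = 0.0926). Stat5b, the main STAT5 form in liver, ran from 61.6 to 98.9 CPM in M (median 88.3) and from 92.1 to 146 CPM in F (median 109). Its ranges overlapped and the difference was modest (log2 fold change -0.39 ± 0.11, edgeR adjusted p = 0.031), and the call was lost without M replicate 2 or F replicate 2, 3 or 7 (edgeR adjusted p = 0.0698 at the highest) and with the litter block (edgeR adjusted p = 0.107). Stat5a, whose transcript is 90.9% identical to that of Stat5b over 2332 bases, was not called (log2 fold change -0.43 ± 0.18, edgeR adjusted p = 0.134).

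A target and the inhibitors of the pathway differed little or not detectably. Igf1, the circulating growth factor made under growth hormone, ran from 691 to 822 CPM in M (median 775) and from 558 to 1017 CPM in F (median 884), and it was not called (log2 fold change -0.13 ± 0.12, edgeR adjusted p = 0.511). The feedback inhibitors Socs2 and Cish were not called either, with wide ranges within each sex. Socs2 ran from 7.79 to 42.8 CPM in M (median 12.7) and from 7.72 to 49.03 CPM in F (median 22.7), a log2 fold change of -0.58 ± 0.46 (edgeR adjusted p = 0.458). Ptpn6, a phosphatase that acts on the receptor complex, was slightly higher in F, at 14.4 to 19.7 CPM in M (median 16.8) against 18.9 to 25.8 CPM in F (median 21.1), a log2 fold change of -0.37 ± 0.10 (edgeR adjusted p = 0.0209), and it lost its call with the litter block (edgeR adjusted p = 0.15).

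Prlr, the receptor for prolactin, had the smallest p of the pathway. It ran from 114 to 175 CPM in M (median 147) and from 397 to 541 CPM in F (median 471). Every F library lay above every M library (log2 fold change -1.70 ± 0.11, edgeR adjusted p = 4.49e-08), and the +/t livers gave -1.63 ± 0.08 (edgeR adjusted p = 1.73e-09). Egfr, the receptor for epidermal growth factor, had the opposite pattern and ran from 562 to 1318 CPM in M (median 1011) and from 147 to 591 CPM in F (median 327). The ranges overlapped slightly (log2 fold change 1.64 ± 0.28, edgeR adjusted p = 0.00133). Igfbp1, a binding protein for insulin-like growth factors that insulin represses, ran from 4.65 to 49.6 CPM in M (median 20.2) and from 36.9 to 268 CPM in F (median 133). Its median was higher in F, with some overlap (log2 fold change -2.84 ± 0.56, edgeR adjusted p = 0.00352). With the litter block the log2 fold change was -1.89 ± 0.73 (edgeR adjusted p = 0.197).

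Among 28 tested transcription regulators linked to liver sex bias, 4 were higher in M (Bcl6, Foxa1, Nr1h4, Zfp809), 4 higher in F (Cux2, Esr1, Tox, Trim24) and 20 were not called. All 4 calls higher in F kept their call with the litter block, and none of the 4 higher in M did. Cux2, the female-biased repressor (chromosome 5, 121856366 to 122050102, minus strand), ran from 0.235 to 0.754 CPM in M (median 0.487) and from 13.3 to 48.4 CPM in F (median 16.2). It was close to the counting floor in every M library (log2 fold change -5.59 ± 0.42, edgeR adjusted p = 3.19e-07). Trim24, a cofactor of nuclear receptors, ran from 9.26 to 14.9 CPM in M (median 10.7) and from 40.1 to 80.7 CPM in F (median 63.5). The lowest F library stood far above the highest M library (log2 fold change -2.40 ± 0.17, edgeR adjusted p = 1.79e-07). Tox, an HMG-box protein, ran from 0.0927 to 0.627 CPM in M (median 0.346) and from 3.65 to 4.81 CPM in F (median 4.15). It was low in both sexes and lowest in M (log2 fold change -3.55 ± 0.27, edgeR adjusted p = 3.14e-07). Esr1, the oestrogen receptor alpha, ran from 21.2 to 34.6 CPM in M (median 25.4) and from 43.1 to 84.4 CPM in F (median 61.98), again with no overlap (log2 fold change -1.21 ± 0.15, edgeR adjusted p = 6.26e-05).

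The M-higher regulators were less firm. Bcl6, the repressor known as male-biased (chromosome 16, 23965052 to 23988852, minus strand), ran from 10.9 to 103 CPM in M (median 47.97) and from 5.47 to 32.9 CPM in F (median 9.54). The sexes overlapped (log2 fold change 1.99 ± 0.50, edgeR adjusted p = 0.0176), and the litter block gave edgeR adjusted p = 0.0534. In the +/t livers the difference was 1.16 ± 0.68 (edgeR adjusted p = 0.302). Foxa1, a forkhead factor that opens liver chromatin, was at 12.5 to 25.6 CPM in M (median 14.8) against 8.47 to 13.4 CPM in F (median 11.4), a log2 fold change of 0.63 ± 0.18 (edgeR adjusted p = 0.0307). Its call was lost without M replicate 7 or F replicate 1 or 4 (edgeR adjusted p = 0.0718 at the highest) and with the block, where the log2 fold change was 0.34 ± 0.13 (edgeR adjusted p = 0.196). Nr1h4, the bile acid receptor, was at 111 to 182 CPM in M (median 146) against 86.2 to 129 CPM in F (median 105), a log2 fold change of 0.41 ± 0.12 (edgeR adjusted p = 0.0438), and it lost its call without any of 9 libraries (M replicates 1 to 5 and F replicates 1, 3, 4 and 7, edgeR adjusted p = 0.0973 at the highest) and with the block (edgeR adjusted p = 0.126). The number of regulators called higher in M was 1 without F replicate 1 or 4 and 2 without M replicate 2 or 7 or F replicate 7. Hnf4a, a master regulator of hepatocyte genes, was level between the sexes, at 519 to 591 CPM in M (median 536) against 489.7 to 587 CPM in F (median 541), a log2 fold change of 0.04 ± 0.06 (edgeR adjusted p = 0.771).

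**Figure D2:**
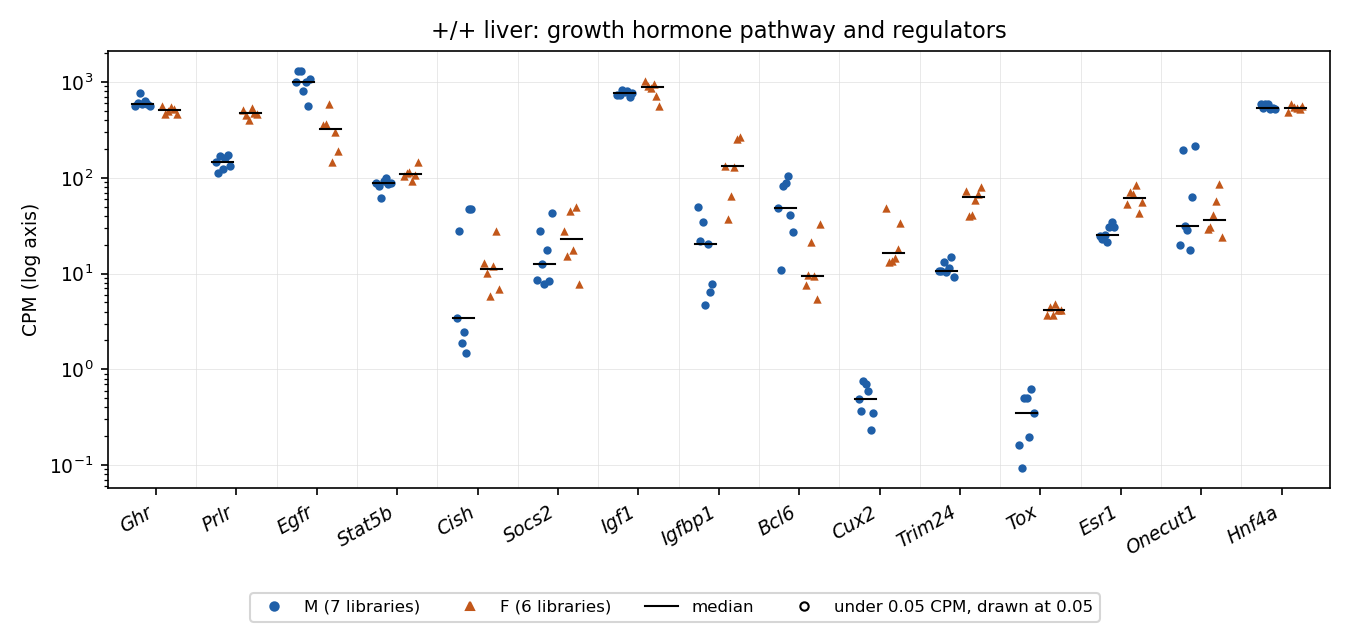
Level of growth hormone pathway and regulator genes in each liver library (CPM, log axis), 1 point per +/+ animal, 7 M and 6 F, with the median of each sex as a line. Prlr, Cux2, Trim24, Tox and Esr1 separate the sexes, while Cish, Socs2, Onecut1 and Bcl6 spread widely within a sex.

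Cish, a STAT5 target that dampens the signal, spanned a wide range among males. In +/+ males it was at 27.9, 47.3 and 47.4 CPM in replicates 2, 6 and 7 and between 1.48 and 3.41 CPM in replicates 1, 3, 4 and 5. Females were at 5.89 to 28.1 CPM (median 11.1), and the difference between the sexes was 0.60 ± 0.74 (edgeR adjusted p = 0.648). It had the opposite sign with the litter block, -1.17 ± 0.74 (edgeR adjusted p = 0.421), and was called in neither fit. M replicates 6 and 7, each alone in its litter, did not inform the sex difference in the block fit. Bcl6 in the males with high Cish was 10.9, 40.8 and 27.4 CPM (replicates 2, 6 and 7), below the other 4, which were between 48.0 and 103 CPM. Onecut1, a liver transcription factor that responds to growth hormone in rat, was 197, 63.4 and 214 CPM in those 3 males and at most 31.6 CPM in the other 4. The +/t males showed the same arrangement. Cish was 42.7, 52.5, 38.1 and 57.6 CPM in replicates 1, 2, 3 and 5, with Bcl6 at 15.1 to 26.6 CPM and Onecut1 at 86.8 to 270 CPM. In replicates 4, 6 and 7, Cish was 0.827 to 1.25 CPM, Bcl6 was 103 to 112 CPM and Onecut1 was 13.5 to 23.7 CPM. These are values of single animals, read without a test. Females covered a narrower range of Onecut1, 24.2 to 86.7 CPM, and Onecut1 was not called between the sexes (log2 fold change 0.86 ± 0.59, edgeR adjusted p = 0.38). Its difference under the litter block was -0.04 ± 0.63 (edgeR adjusted p = 0.98). Igf1 did not follow Cish in the +/+ males. It was at 734, 691 and 775 CPM in replicates 2, 6 and 7 and at 730 to 822 CPM in the other 4. In +/t males it was at 857 to 1106 CPM in the 4 with high Cish and at 724 to 841 CPM in the other 3. Onecut1 overlaps the gene Gm20649 on the same strand, and Cish overlaps Gm17040 and Gm17041 on the other strand.

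**Figure D3:**
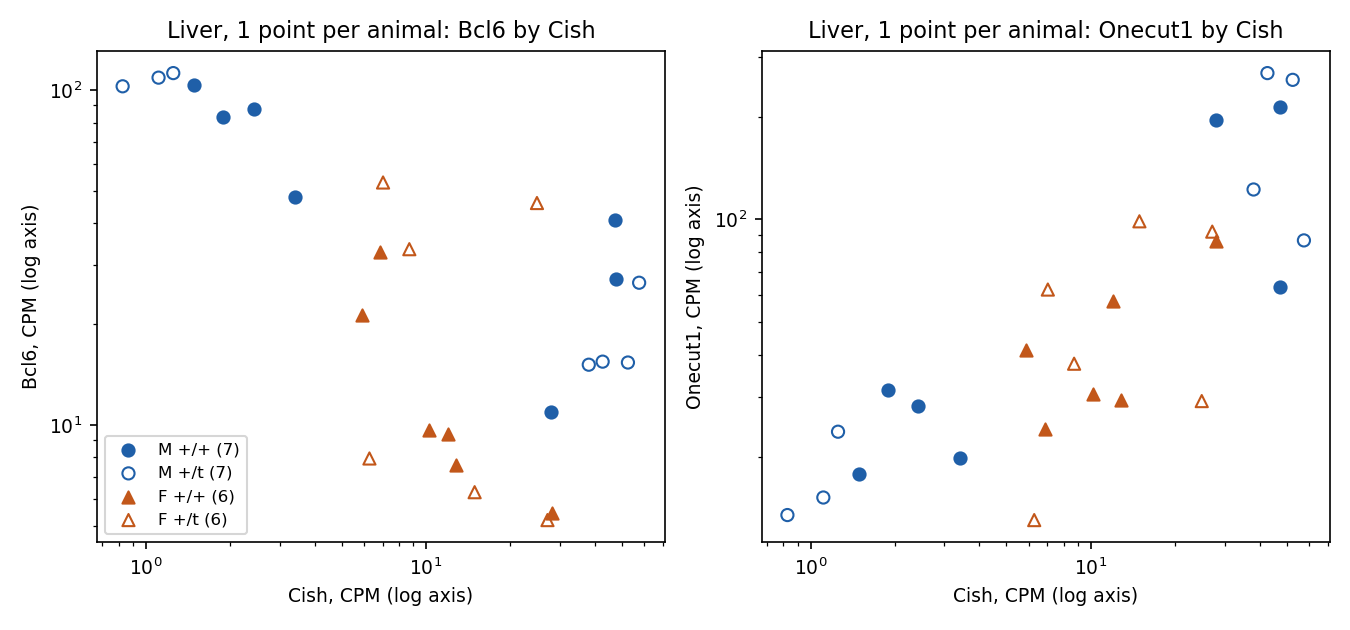
Bcl6 and Onecut1 (vertical axes, CPM, log scale) against Cish (horizontal axis, CPM, log scale) in each of the 26 liver libraries, coloured by sex and genotype. The +/+ males with Cish at 27.9 to 47.4 CPM sit lower for Bcl6 and higher for Onecut1 than those with Cish at 1.48 to 3.41 CPM, and the +/t males are arranged alike.

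Promoter sequence is shown for 9 genes that differed at least 4-fold between the sexes and carry a match to a site that STAT5 or ONECUT-type factors are known to bind. The searched letters were TTCNNNGAA (STAT5-type) and ATCAAT (ONECUT-type), on both strands, in the 250 bases before the RefSeq start (RefSeq, GRCm38.p6). The capitals mark the matches. The stretches lie at chr10:33857598-33857668 on the plus strand and, on the minus strand, at chr19:7802705-7802823, chr5:145469778-145469813, chr5:145584781-145584816, chr5:145805925-145805960, chr4:61304080-61304178, chr4:62150915-62151012, chr4:62087397-62087494 and chr4:60070476-60070572. The first 6 genes were higher in F and the last 3 higher in M.
Sult3a1: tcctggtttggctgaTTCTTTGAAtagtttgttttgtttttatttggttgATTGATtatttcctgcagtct
Slc22a26: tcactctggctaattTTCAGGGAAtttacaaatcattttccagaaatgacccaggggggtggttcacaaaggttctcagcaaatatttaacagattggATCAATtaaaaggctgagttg
Cyp3a16: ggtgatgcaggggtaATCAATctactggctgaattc
Cyp3a41b: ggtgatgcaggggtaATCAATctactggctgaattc
Cyp3a44: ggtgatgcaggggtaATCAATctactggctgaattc
Mup14: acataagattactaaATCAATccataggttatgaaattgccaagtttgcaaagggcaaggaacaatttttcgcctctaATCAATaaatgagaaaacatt
Mup21: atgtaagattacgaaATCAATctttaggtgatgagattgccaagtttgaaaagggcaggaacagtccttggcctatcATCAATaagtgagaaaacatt
Mup3: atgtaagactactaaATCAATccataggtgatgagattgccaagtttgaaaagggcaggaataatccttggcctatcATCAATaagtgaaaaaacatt
Mup7: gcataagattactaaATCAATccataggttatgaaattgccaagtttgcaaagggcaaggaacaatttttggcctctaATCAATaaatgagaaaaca
Each stretch begins and ends 15 bases outside its outermost match, except that of Mup7, which ends at the base before the start. In Sult3a1 and Slc22a26 both kinds of match were present, and in Sult3a1 the ATCAAT match is on the other strand. The stretches of Cyp3a16, Cyp3a41b and Cyp3a44 were the same 36 bases. Mup14, which was higher in F, differed from Mup7, which was higher in M, at 2 of 97 bases, and both held ATCAAT at the same places of the aligned stretches, which lie at different distances from the RefSeq starts.

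Over all tested genes with a matched RefSeq start (8022 of 11697), ATCAAT occurred in 3.78% and TTCNNNGAA in 6.17% of these windows. ATCAAT was found in 5.21% of genes called higher in M and 6.31% of genes called higher in F, and TTCNNNGAA in 7.01% and 5.91%. Among genes at least 4-fold higher in M, 6 of 34 matched genes (17.6%) held ATCAAT, all of them Mup genes. Among those at least 4-fold higher in F, 9 of 48 (18.8%) did, of which 4 were Cyp3a genes. With Mup14, genes of these clusters of near-identical copies make up 5 of the 9. TTCNNNGAA was in 1 of 34 (Nlrp12) and in 2 of 48 (Slc22a26 and Sult3a1). The windows also differed in base composition, with a median GC content of 60% for all tested genes, 49.2% for those at least 4-fold higher in M and 45.6% for those at least 4-fold higher in F. A match of these letters is a description of the window and does not show binding.

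Cytochrome P450 enzymes, which oxidize steroids, fatty acids and drugs, were among the genes with the largest differences in both directions. The Cyp2b family (3 of 4 tested higher in F) and Cyp3a family (5 of 8 higher in F, 1 higher in M) leaned to F. Cyp2c genes went both ways (8 of 13 higher in F, 3 higher in M), as did Cyp4 genes (3 of 12 in each direction), and 2 of 6 Cyp2d genes were higher in M. The single Cyp3a gene higher in M is Cyp3a25, and no Cyp3a gene was called higher in M without M replicate 1, 2, 3 or 4 or F replicate 1, 4 or 5, while 2 were without F replicate 7 and with the litter block. Of 4 Cyp2a genes tested, 2 were higher in F (Cyp2a4 and Cyp2a22) and 1 higher in M (Cyp2a12). The M call was lost with the litter block and without M replicate 2, 3, 4, 5 or 7 or F replicate 1, 3 or 5.

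On the male side, Cyp4a12a, which hydroxylates arachidonic and other fatty acids, ran from 733 to 988 CPM in M (median 827) and from 2.51 to 59.3 CPM in F (median 23.7). The groups did not overlap (log2 fold change 5.03 ± 0.61, edgeR adjusted p = 5.52e-05). Its neighbour Cyp4a12b, with a transcript 98.3% identical, ran from 30.05 to 107 CPM in M (median 57.02) and from 0 to 0.87 CPM in F (median 0.366), so that it was near 0 in F (log2 fold change 7.40 ± 0.47, edgeR adjusted p = 5.03e-08). Reads of the 2 copies may have been shared between them in the counting. Cyp2d9, a testosterone hydroxylase, ran from 1634 to 2431 CPM in M (median 1868) and from 3.84 to 227 CPM in F (median 11.4). The 6 females themselves spanned a wide range (log2 fold change 4.67 ± 0.92, edgeR adjusted p = 0.00362). With the litter block the difference was 7.13 ± 1.03 and remained called. Cyp7b1, an oxysterol and androgen hydroxylase, ran from 438 to 913 CPM in M (median 669) and from 111 to 376 CPM in F (median 179), a log2 fold change of 1.86 ± 0.25 (edgeR adjusted p = 0.000157). Neither overlapped between the sexes. Cyp2c67, counted among female-biased genes in other work, was here higher in M, at 384 to 698 CPM in M (median 500.4) against 100 to 197 CPM in F (median 117), a log2 fold change of 1.998 ± 0.18 (edgeR adjusted p = 1.92e-06). Cyp2c55 was also higher in M (log2 fold change 2.13 ± 0.31, edgeR adjusted p = 0.000301). Cyp2f2, an enzyme of periportal hepatocytes, was at 2232 to 3295 CPM in M (median 2497) against 1013 to 1665 CPM in F (median 1411), a log2 fold change of 0.87 ± 0.12 (edgeR adjusted p = 0.000206).

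On the female side, Cyp3a16 (chromosome 5, 145436309 to 145469723, minus strand), whose promoter stretch is shown above, ran from 0 to 0.26 CPM in M (median 0.0989) and from 265 to 426 CPM in F (median 324). It was all but absent from M (log2 fold change -11.68 ± 0.29, edgeR adjusted p = 1.78e-13). Cyp3a41b, with the same promoter stretch, ran from 0 to 0.243 CPM in M (median 0) and from 177 to 231 CPM in F (median 213), a log2 fold change of -11.68 ± 0.26 (edgeR adjusted p = 4.43e-14). Cyp3a44, the third of them, had a higher level in M and ran from 12.7 to 45.6 CPM in M (median 26.1) and from 827 to 984 CPM in F (median 955), a log2 fold change of -5.16 ± 0.26 (edgeR adjusted p = 2.8e-09). Cyp3a41a, whose transcript is 99.7% identical to that of Cyp3a41b, was at 0 to 2.69 CPM in M (median 0.952) against 307 to 412 CPM in F (median 335), a log2 fold change of -8.12 ± 0.39 (edgeR adjusted p = 1.34e-09). In the 3 genes with the same promoter stretch, M levels ranged from 0 to 45.6 CPM. Cyp3a11, the abundant drug-metabolizing member named here after its values were seen, was not called, at 979.9 to 4758 CPM in M (median 3152) against 151 to 2927 CPM in F (median 693), a log2 fold change of 1.55 ± 0.57 (edgeR adjusted p = 0.0942). It was called higher in M without F replicate 7 (edgeR adjusted p = 0.0133) and with the litter block (edgeR adjusted p = 0.0126).

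Some enzymes of the Cyp2b and Cyp2a families, which hydroxylate steroids, were much higher in F. Cyp2b9 ran from 2.23 to 73.5 CPM in M (median 24.8) and from 545 to 729.7 CPM in F (median 625), a log2 fold change of -4.45 ± 0.58 (edgeR adjusted p = 0.000126). Cyp2b13 ran from 0.0927 to 0.812 CPM in M (median 0.503) and from 1.61 to 647 CPM in F (median 256), a log2 fold change of -8.89 ± 1.29 (edgeR adjusted p = 0.000283), with a wide range among females. No female was below any male for either gene. Cyp2a4, a testosterone hydroxylase, ran from 1.21 to 69.5 CPM in M (median 6.15) and from 493 to 828 CPM in F (median 669.6), a log2 fold change of -5.55 ± 0.76 (edgeR adjusted p = 0.000194). M replicate 3 was the highest male, and without it the log2 fold change was -6.93. Its transcript is 98.2% identical to that of Cyp2a5. In the Cyp2c family, Cyp2c69 was at 1.04 to 57.4 CPM in M (median 10.7) against 526 to 1679 CPM in F (median 984), a log2 fold change of -6.04 ± 0.77 (edgeR adjusted p = 9.53e-05). Cyp2c40 was at 11.9 to 215 CPM in M (median 74.6) against 599 to 822 CPM in F (median 754), a log2 fold change of -3.07 ± 0.44 (edgeR adjusted p = 0.000274) and Cyp2c39 at 0.627 to 1.39 CPM in M (median 1.04) against 15.1 to 27.5 CPM in F (median 20.9), a log2 fold change of -4.30 ± 0.19 (edgeR adjusted p = 4.19e-10). Neither overlapped between the sexes. The transcripts of Cyp2c40, Cyp2c67 and Cyp2c69 are 97.6 to 97.7% identical, so the opposite directions of Cyp2c67 and the other two are uncertain to the extent that reads were shared.

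Of the P450s with narrower tasks, Cyp17a1, the steroid hydroxylase and lyase of androgen synthesis, ran from 11.1 to 96.3 CPM in M (median 19.6) and from 154 to 397 CPM in F (median 307), a log2 fold change of -3.06 ± 0.45 (edgeR adjusted p = 0.000364). Cyp39a1, an oxysterol hydroxylase of bile acid synthesis, ran from 7.28 to 18.7 CPM in M (median 10.6) and from 39.2 to 90.9 CPM in F (median 44.6), a log2 fold change of -2.09 ± 0.24 (edgeR adjusted p = 2.68e-05). Its direction was opposite to that of Cyp7b1. Cyp4a10, a fatty acid hydroxylase induced through PPAR alpha, ran from 0.235 to 8.66 CPM in M (median 1.30) and from 8.27 to 92.2 CPM in F (median 17.3), with overlap (log2 fold change -3.59 ± 0.69, edgeR adjusted p = 0.003). Cyp7a1, the rate-limiting enzyme of bile acid synthesis, and Cyp2e1, the ethanol-oxidizing enzyme of pericentral hepatocytes, were chosen after their values were seen and were not called. Cyp7a1 was at 66.2 to 169 CPM in M (median 123) against 88.9 to 261 CPM in F (median 166), a log2 fold change of -0.57 ± 0.24 (edgeR adjusted p = 0.133), and was called higher in F without F replicate 4 (edgeR adjusted p = 0.0459). Cyp2e1 gave a log2 fold change of 0.30 ± 0.16 (edgeR adjusted p = 0.253).

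Sulfotransferases, which add sulfate to steroids, bile acids and amines, were called in the F direction only. Of 16 tested, 12 were higher in F, none higher in M and 4 were not called. With the litter block 11 were called higher in F. Sult3a1 (chromosome 10, 33857721 to 33879532, plus strand), an amine sulfotransferase whose promoter stretch holds both kinds of match, ran from 0 to 0.202 CPM in M (median 0.0783) and from 1855 to 2695 CPM in F (median 2226). It had almost no counts in M (log2 fold change -14.59 ± 0.28, edgeR adjusted p = 1.5e-14). Its neighbour Sult3a2 had 3 counts in all 7 M libraries together against 39689 in the 6 F libraries, a ratio of 13282 (exact 95% interval 4545 to 64410, counting error only). In F it was at 337 to 734 CPM (median 489).

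Several hydroxysteroid sulfotransferases on chromosome 7 showed the same on-off pattern, while Sult2a7 and Sult2a8 were tested and not called. Sult2a1 had 1 count in M and was at 169 to 337 CPM in F (median 294), a ratio of 21196 (exact 95% interval 3804 to 837242). Sult2a2 had no count in any M library and was at 55.1 to 70.6 CPM in F (median 63.8), at least 1596-fold higher against a floor of 3 counts over the M group. Sult2a5, also at 0 in all M libraries, was at least 925-fold higher, at 27.8 to 52.96 CPM in F. On the same terms Sult2a4 was at least 151-fold and Sult2a3 at least 93.4-fold higher. Sult1e1, the oestrogen sulfotransferase, was low in F and near 0 in M, at 0 to 0.297 CPM in M (median 0.162) against 3.48 to 23.996 CPM in F (median 7.31), a log2 fold change of -6.19 ± 0.68 (edgeR adjusted p = 1.65e-05). The transcripts of Sult2a1 and Sult2a5 are 94.5% identical over 1021 bases.

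Other conjugating and oxidizing families were divided. Among flavin monooxygenases, which oxidize drugs and other amines, Fmo1, Fmo2 and Fmo4 were higher in F. Fmo1 ran from 200.2 to 409 CPM in M (median 289) and from 539 to 1020.5 CPM in F (median 785), a log2 fold change of -1.38 ± 0.17 (edgeR adjusted p = 5.99e-05), and Fmo4 was at 10.9 to 15.9 CPM in M (median 13.7) against 25.4 to 43.3 CPM in F (median 40.9), a log2 fold change of -1.46 ± 0.14 (edgeR adjusted p = 4.87e-06). Fmo2 differed more, at 2.63 to 8.80 CPM in M (median 4.54) against 14.2 to 40.9 CPM in F (median 32.6), a log2 fold change of -2.71 ± 0.26 (edgeR adjusted p = 5e-06). None of these overlapped between the sexes. Hao2, a peroxisomal hydroxyacid oxidase, was near 0 in M, at 0 to 0.297 CPM in M (median 0.0783) against 29.1 to 151 CPM in F (median 72.8), a log2 fold change of -9.59 ± 0.55 (edgeR adjusted p = 1.12e-08).

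Glutathione transferases, which couple glutathione to reactive compounds, were called 6 times higher in M and 4 times higher in F of 22 tested (3 and 3 with the litter block). Gstp1 (chromosome 19, 4035407 to 4037985, minus strand) ran from 513 to 767 CPM in M (median 679) and from 43.6 to 63.5 CPM in F (median 51.1). The sexes were far apart and each spread little (log2 fold change 3.60 ± 0.13, edgeR adjusted p = 4.78e-11). Gstp2, 98.2% identical in transcript, was low in both sexes, at 3.27 to 6.12 CPM in M (median 3.66) against 0.982 to 2.14 CPM in F (median 1.26), a log2 fold change of 1.65 ± 0.22 (edgeR adjusted p = 0.000133). Gstt3 had the opposite direction and ran from 14.9 to 44.3 CPM in M (median 30.6) and from 178 to 206 CPM in F (median 186), a log2 fold change of -2.61 ± 0.20 (edgeR adjusted p = 3.58e-07), and it shares 524 bases with Gm20441 on the same strand. Of 17 glucuronosyltransferases tested, 4 were higher in M and 1 higher in F. Ugt2b1 ran from 1428 to 1993 CPM in M (median 1676) and from 606 to 1113 CPM in F (median 668), a log2 fold change of 1.14 ± 0.14 (edgeR adjusted p = 5.28e-05). Ugt2b38 was at 7.88 to 23.96 CPM in M (median 11.2) against 0.229 to 1.37 CPM in F (median 0.565), a log2 fold change of 4.45 ± 0.40 (edgeR adjusted p = 2.07e-06), and Ugt2b37, the one higher in F, was at 1.62 to 7.98 CPM in M (median 2.14) against 13.3 to 74.7 CPM in F (median 27.4), a log2 fold change of -3.38 ± 0.44 (edgeR adjusted p = 0.00011). None of these 3 overlapped between the sexes. Without M replicate 3, 2 glucuronosyltransferases were called higher in F. Carboxylesterases, which split esters of drugs and lipids, were called 7 times higher in M and 2 times higher in F of 16 tested (4 and 3 with the litter block). Ces3a was at 2947 to 3695 CPM in M (median 3306) against 1268 to 2010.2 CPM in F (median 1429), a log2 fold change of 1.11 ± 0.10 (edgeR adjusted p = 3.34e-06), and Ces2c was higher in M by 1.38 ± 0.21 (edgeR adjusted p = 0.000373). Ces1b was the other way, at 195 to 315 CPM in M (median 232) against 399.9 to 532 CPM in F (median 451), a log2 fold change of -0.90 ± 0.13 (edgeR adjusted p = 0.000267).

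Steroid-metabolizing enzymes were called in both directions. Of 26 tested genes of sex steroid metabolism, 9 were higher in M and 3 higher in F (6 and 3 with the litter block). Hsd3b5, a ketosteroid reductase known from male liver, ran from 382 to 591 CPM in M (median 445) and from 30.5 to 75.7 CPM in F (median 49.6). It separated the sexes without overlap (log2 fold change 3.24 ± 0.20, edgeR adjusted p = 4.5e-08). Hsd3b2 was at 339 to 498 CPM in M (median 378) against 53.6 to 148 CPM in F (median 94.2), a log2 fold change of 2.02 ± 0.19 (edgeR adjusted p = 3.84e-06), with a transcript 92.6% identical to that of Hsd3b6. Srd5a1, the steroid reductase that acts on testosterone, ran from 73.3 to 99.8 CPM in M (median 84.4) and from 23.1 to 52.96 CPM in F (median 40.1), a log2 fold change of 1.17 ± 0.15 (edgeR adjusted p = 0.000133). Bile acid synthesis and transport, with 30 genes tested, held 7 higher in M and 4 higher in F (3 and 3 with the litter block). Scp2, the sterol carrier protein of peroxisomes, ran from 4568 to 5729 CPM in M (median 5487) and from 1549.8 to 2085 CPM in F (median 1751), without overlap (log2 fold change 1.57 ± 0.09, edgeR adjusted p = 1.3e-08). A pseudogene, Scp2-ps2, is 99.6% identical to it. Akr1d1, the steroid reductase of bile acid synthesis, was higher in F, at 221 to 318 CPM in M (median 253) against 361 to 542 CPM in F (median 478), a log2 fold change of -0.77 ± 0.11 (edgeR adjusted p = 0.00024).

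Major urinary proteins are lipocalins made in liver and excreted in urine, where they carry pheromones. Of 22 Mup genes tested, 19 were higher in M, 1 higher in F and 2 not called. With the litter block the counts were 19 and 1. In the +/t livers, 14 of the 20 called Mup genes had the same call. The summed level of the 22 genes in +/+ liver was 32508 to 47445 CPM in M and 7510 to 13973 CPM in F, without overlap. Mup20, also known as darcin, ran from 602 to 2077 CPM in M (median 1619) and from 8.75 to 47.1 CPM in F (median 25.9), a log2 fold change of 5.88 ± 0.40 (edgeR adjusted p = 1.03e-07). Mup21 ran from 284 to 933 CPM in M (median 503) and from 1.16 to 4.02 CPM in F (median 2.07), the largest M-higher difference of the family (log2 fold change 7.96 ± 0.39, edgeR adjusted p = 2.2e-09). Both were low in every female. Mup3 ran from 8936 to 10772 CPM in M (median 9601) and from 1032 to 2593 CPM in F (median 1409), so that F retained a high level (log2 fold change 2.61 ± 0.19, edgeR adjusted p = 1.67e-07).

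Mup14 and Mup7, whose promoter stretches shown above are nearly identical, went in opposite directions. Mup7 ran from 1517 to 2222 CPM in M (median 1900.4) and from 18.9 to 93.96 CPM in F (median 39.005), a log2 fold change of 5.18 ± 0.35 (edgeR adjusted p = 9.46e-08). Mup14 ran from 10.4 to 48.02 CPM in M (median 18.7) and from 157 to 447 CPM in F (median 321), a log2 fold change of -3.59 ± 0.37 (edgeR adjusted p = 9.73e-06). In the +/t livers Mup7 gave 3.67 ± 0.51 (edgeR adjusted p = 0.000206) and Mup14 gave -2.86 ± 0.96 (edgeR adjusted p = 0.0656), which did not pass the test. Mup1, named after its values were seen, was not called and ran from 147 to 4288 CPM in M (median 2221) and from 4.54 to 1813 CPM in F (median 531), a log2 fold change of 1.49 ± 1.16 (edgeR adjusted p = 0.443). Each of these 3 genes shares stretches at 98% identity or more with 15 other genes, so the split of reads within the cluster is uncertain,. The summed level does not depend on that split among the listed Mup genes.

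Among other secreted proteins, 4 genes of the complement membrane attack complex (C6, C8a, C8b and C9) were higher in M, while C8g was tested and not called. Of 31 complement and coagulation genes tested, 6 were higher in M (C1ra, C1s1, C6, C8a, C8b, C9) and 5 higher in F (C3, F10, F7, Kng1, Mbl2). With the litter block the counts were 4 and 2. C6 (chromosome 15, 4727175 to 4814967, plus strand) ran from 297 to 542 CPM in M (median 381) and from 11.8 to 28.2 CPM in F (median 15.4). This was the largest of them (log2 fold change 4.51 ± 0.22, edgeR adjusted p = 2.21e-09). C9 ran from 371 to 560.3 CPM in M (median 436) and from 24.3 to 142 CPM in F (median 35.05), a log2 fold change of 2.93 ± 0.39 (edgeR adjusted p = 0.000138). Neither overlapped between the sexes. C8a and C8b, 2 chains of the same component, were at 964 to 1280.5 CPM in M (median 1218) against 322 to 498 CPM in F (median 376), a log2 fold change of 1.56 ± 0.11 (edgeR adjusted p = 2.21e-07) and at 391 to 573 CPM in M (median 474) against 159.6 to 248 CPM in F (median 196), a log2 fold change of 1.23 ± 0.12 (edgeR adjusted p = 4.69e-06). Mbl2, a mannose-binding lectin that starts another branch of complement, was higher in F, at 223 to 347 CPM in M (median 241) against 384 to 528 CPM in F (median 425), a log2 fold change of -0.81 ± 0.11 (edgeR adjusted p = 0.000156).

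A1bg, a plasma glycoprotein of the immunoglobulin superfamily, was among the most divergent secreted proteins. It ran from 0.0812 to 0.297 CPM in M (median 0.185) and from 77.7 to 1451 CPM in F (median 880.1), a log2 fold change of -12.03 ± 0.95 (edgeR adjusted p = 5.07e-07). Serpina6, which binds corticosteroids in plasma, was at 142 to 369 CPM in M (median 193) against 429 to 699.6 CPM in F (median 528), a log2 fold change of -1.27 ± 0.19 (edgeR adjusted p = 0.000422). It was the only one of 20 tested genes of its serpin cluster called higher in F, against 7 called higher in M. None of those 7 passed with the litter block, and without M replicate 4, F replicate 4 or F replicate 7 they numbered 4, 3 and 4. Alb, albumin, ran from 40681 to 79649 CPM in M (median 57607) and from 77420.3 to 109671 CPM in F (median 97909.9), a log2 fold change of -0.70 ± 0.14 (edgeR adjusted p = 0.00439). The highest M library reached slightly above the lowest F library. Of 22 acute phase genes, 6 were higher in F and none in M, with 3 called under the litter block.

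**Figure D4:**
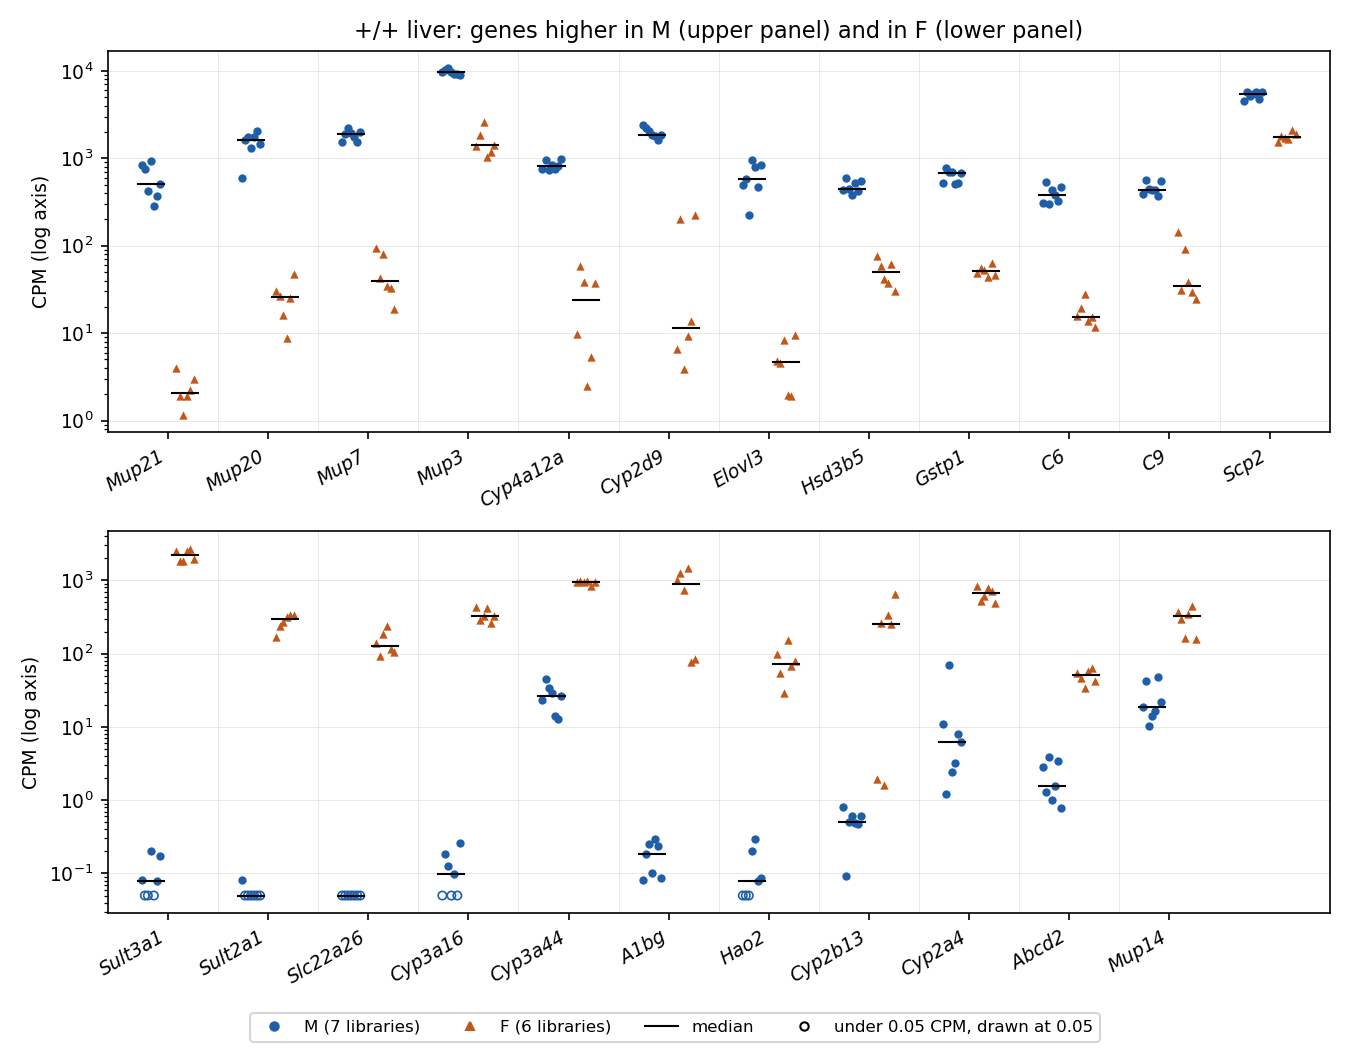
Level of strongly different genes in each liver library (CPM, log axis), 1 point per +/+ animal, with the median of each sex as a line and values under 0.05 CPM drawn as open symbols at 0.05. Cyp2b13 runs from 1.61 to 647 CPM, A1bg from 77.7 to 1451 CPM and Cyp2d9 from 3.84 to 227 CPM among +/+ females, none of them overlapping the +/+ males.

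Lipid synthesis leaned to F. Of 24 tested genes of fatty acid synthesis, 8 were higher in F and 1 was higher in M. The counts were again 8 and 1 with the litter block, and 8 of the 9 calls were shared. Fasn, the fatty acid synthase, ran from 314 to 932 CPM in M (median 786) and from 1152 to 1994 CPM in F (median 1369.5), a log2 fold change of -1.04 ± 0.20 (edgeR adjusted p = 0.0033). Elovl6, which lengthens palmitate, ran from 75.6 to 128 CPM in M (median 100.5) and from 174 to 417 CPM in F (median 227), a log2 fold change of -1.49 ± 0.20 (edgeR adjusted p = 0.000161). Both separated the sexes without overlap. Scd1, the stearoyl-CoA desaturase, ran from 2121 to 3423 CPM in M (median 2731) and from 3344 to 9604 CPM in F (median 5767), with overlap (log2 fold change -1.08 ± 0.22, edgeR adjusted p = 0.00475). In the +/t livers it gave -0.73 ± 0.42 (edgeR adjusted p = 0.295). Pnpla3, a lipid droplet protein, was at 0.629 to 5.19 CPM in M (median 3.25) against 18.8 to 86.7 CPM in F (median 32.01), a log2 fold change of -3.75 ± 0.44 (edgeR adjusted p = 3.87e-05). Elovl3, an elongase of very long fatty acids (chromosome 19, 46131897 to 46135694, plus strand), was the exception and ran from 223 to 959 CPM in M (median 586) and from 1.93 to 9.40 CPM in F (median 4.71). Every M library stood well above every F library (log2 fold change 6.92 ± 0.47, edgeR adjusted p = 1.03e-07). Without M replicate 3, 2 genes of this list were called higher in M.

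Cholesterol synthesis and uptake genes were called only in the F direction, 8 of 23 tested, but the count was unstable. It was 2 with the litter block, 2 without F replicate 4, 3 without M replicate 5, 4 without F replicate 1, 2 or 7, and 5 without M replicate 7 or F replicate 5. Sc5d, a late enzyme of cholesterol synthesis, was at 407 to 635 CPM in M (median 560.1) against 685 to 959 CPM in F (median 904), a log2 fold change of -0.61 ± 0.11 (edgeR adjusted p = 0.0021). Among 10 acyl-CoA thioesterases 6 were higher in F, none of them with the litter block. Acot3 was at 0.0866 to 8.80 CPM in M (median 0.297) against 9.02 to 33.04 CPM in F (median 15.4) (log2 fold change -3.55 ± 0.66, edgeR adjusted p = 0.00233, and edgeR adjusted p = 0.0704 with the litter block). M replicate 3 was the highest male, and without it the log2 fold change was -4.97. Abcd2, which carries very long fatty acyl-CoA into peroxisomes, ran from 0.779 to 3.90 CPM in M (median 1.58) and from 34.4 to 63.98 CPM in F (median 50.9), a log2 fold change of -4.56 ± 0.28 (edgeR adjusted p = 3.3e-08). Vnn1, a pantetheinase that recycles vitamin for coenzyme A, was at 2.32 to 6.17 CPM in M (median 3.52) against 12.3 to 29.004 CPM in F (median 19.9), a log2 fold change of -2.52 ± 0.24 (edgeR adjusted p = 4.56e-06). Both kept a clear gap between the sexes. Among 29 tested genes of fatty acid oxidation, 9 were higher in F and 3 higher in M (4 and 1 with the litter block). The 3 became 0 without M replicate 3, M replicate 7 or F replicate 4, and 1 without M replicate 1 or 4 or F replicate 1, 2 or 5.

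Transporters of anions and drugs held some of the on-off genes. Slc22a26, an organic anion transporter gene (chromosome 19, 7781041 to 7802667, minus strand) whose promoter stretch is shown above, had no count in any M library and was at 93.8 to 241 CPM in F (median 127), at least 3722-fold higher. Its neighbour Slc22a27 had 2 counts in M and was at 3.74 to 30.3 CPM in F, a ratio of 688 (exact 95% interval 190 to 5685). Slc22a28, next to both, was the other way, at 10.6 to 29.4 CPM in M (median 20.4) against 6.57 to 9.91 CPM in F (median 8.25), a log2 fold change of 1.28 ± 0.19 (edgeR adjusted p = 0.000355). These neighbours thus went in opposite directions. Slc22a28 has a transcript 98.8% identical to that of Slc22a30. Slco1a1, an uptake carrier of bile salts and steroid sulfates, was at 1117 to 1496 CPM in M (median 1159) against 643 to 1046 CPM in F (median 717) (log2 fold change 0.66 ± 0.12, edgeR adjusted p = 0.0018, and edgeR adjusted p = 0.0902 with the litter block). Of 37 ABC transporters, 4 were higher in M and 7 higher in F (2 and 3 with the block). Abcb1a, a drug efflux pump, ran from 1.72 to 5.17 CPM in M (median 4.59) and from 17.4 to 24.3 CPM in F (median 19.2), a log2 fold change of -2.37 ± 0.19 (edgeR adjusted p = 5.79e-07). Abcg2, which exports urate and sulfated compounds, had the opposite direction and ran from 83.7 to 118 CPM in M (median 111) and from 16.97 to 46.6 CPM in F (median 27.3), a log2 fold change of 1.89 ± 0.19 (edgeR adjusted p = 7.05e-06). Neither pump overlapped between the sexes. Abcb11, the bile salt export pump, differed little, at 838 to 1106 CPM in M (median 977) against 1079 to 1387 CPM in F (median 1325), a log2 fold change of -0.41 ± 0.08 (edgeR adjusted p = 0.00499).

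Several genes outside these families were among the largest M-higher differences. Nox4, an NADPH oxidase, ran from 19.8 to 53.6 CPM in M (median 23.97) and from 0.0678 to 0.913 CPM in F (median 0.636), a log2 fold change of 5.71 ± 0.39 (edgeR adjusted p = 9.46e-08). Capn8, a calpain protease, was at 5.78 to 39.1 CPM in M (median 21.5) against 0.136 to 0.841 CPM in F (median 0.361), a log2 fold change of 5.69 ± 0.56 (edgeR adjusted p = 5.37e-06), and Scara5, a receptor for ferritin, at 4.78 to 28.4 CPM in M (median 12.5) against 0.0764 to 1.16 CPM in F (median 0.256), a log2 fold change of 5.11 ± 0.50 (edgeR adjusted p = 4.68e-06). Nat8f6, an N-acetyltransferase family member, was at 1.76 to 8.19 CPM in M (median 3.995) against 0 to 0.229 CPM in F (median 0.0858), a log2 fold change of 5.63 ± 0.56 (edgeR adjusted p = 4.62e-06), with copies at 98.5% identity. All 4 were close to 0 in F. Bhlhe41, a repressor of the circadian clock, was at 1.04 to 19.2 CPM in M (median 1.57) against 0 to 1.004 CPM in F (median 0.418), a log2 fold change of 3.32 ± 0.85 (edgeR adjusted p = 0.0176), where M replicate 3 alone reached the highest value, and without it the log2 fold change was 2.39 and still called.

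Genes of immediate early and stress responses, which change with handling and time of collection, were called only in the F direction, 6 of 21 tested (4 with the litter block). Their summed level was 195 to 525 CPM in M and 369 to 533 CPM in F. Dusp1, a phosphatase induced by stress and glucocorticoids, ran from 7.04 to 17.4 CPM in M (median 15.6) and from 44.7 to 119.9 CPM in F (median 61.1), a log2 fold change of -2.26 ± 0.24 (edgeR adjusted p = 1.48e-05). Klf6, an early response factor, was at 4.45 to 7.30 CPM in M (median 5.71) against 9.64 to 13.8 CPM in F (median 12.5), a log2 fold change of -1.09 ± 0.11 (edgeR adjusted p = 1.14e-05). Of 23 interferon-stimulated genes, 4 were higher in F (1 with the litter block), among them Gbp7, a guanylate-binding protein (log2 fold change -1.16 ± 0.17, edgeR adjusted p = 0.000368). Among all tested genes, 6.42% were called higher in F. The part of these stress genes in the other results was not tested.

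Markers of other liver cells differed modestly. Called genes made up 12.5% of all tested genes, 6.04% higher in M and 6.42% higher in F, and some marker counts were near these shares. Of 15 markers of sinusoidal and vascular endothelium, 3 were higher in F (Cdh5, Dnase1l3, Kdr) and 1 higher in M (Tie1). None passed with the litter block, and the F count was 5 without M replicate 1 or 3 or F replicate 2 and 7 without M replicate 6. Their summed level did not overlap, at 443 to 534 CPM in M and 568 to 626 CPM in F. Kdr, a receptor for vascular growth factor, was at 45.8 to 56.02 CPM in M (median 51.9) against 58.4 to 70.1 CPM in F (median 64.6) (log2 fold change -0.32 ± 0.06, edgeR adjusted p = 0.00392, and edgeR adjusted p = 0.141 with the litter block). Of 12 Kupffer cell and macrophage markers, 4 were higher in F, none with the litter block, 1 without M replicate 4, 5 or 7 or F replicate 4, and 2 without F replicate 1 or 3. Their sum was 253 to 344 CPM in M and 314 to 699 CPM in F. Clec4f, which defines Kupffer cells, was at 49.7 to 71.8 CPM in M (median 66.7) against 71.2 to 131 CPM in F (median 85.3) (log2 fold change -0.54 ± 0.13, edgeR adjusted p = 0.0129, and edgeR adjusted p = 0.0581 with the litter block). Of 13 stellate cell and fibroblast markers, Ecm1 was the one called, higher in F (log2 fold change -0.63 ± 0.09, edgeR adjusted p = 0.000208), and the median of the list was -0.07. There were 2 F calls without M replicate 6 and 3 without F replicate 3. Of 12 general hepatocyte markers, 2 were higher in M (Apoa1 and Serpina1a), 3 were higher in F (Ahsg, Alb and Cps1) and 7 were not called. Their median log2 fold change was 0.05. With the litter block 1 was called higher in F and 0 higher in M. The M count was 1 without M replicate 1, 3, 4 or 5 or F replicate 2, 3, 4, 5 or 7. Of 12 pericentral hepatocyte markers, 3 were higher in F (Aldh3a2, Lect2 and Lgr5), none was higher in M and 9 were not called. None was called with the litter block, and the F count was 5 without M replicate 2. Of 12 periportal hepatocyte markers, 3 were higher in F (Ass1, Ctsc and Gls2), 1 was higher in M (Cyp2f2) and 8 were not called, with 1 in each direction under the litter block. Ctsc, a lysosomal peptidase, was at 57.3 to 96.05 CPM in M (median 81.5) against 173 to 319 CPM in F (median 249.9), a log2 fold change of -1.66 ± 0.14 (edgeR adjusted p = 1.72e-06). Of 5 cholangiocyte markers, Pkhd1 was called higher in F, with the litter block as well. No tested marker of T, NK and B cells (3 tested), neutrophils (4), erythroid cells (5), proliferating cells (6) or adipocytes (2) was called by edgeR with all 13 libraries and no block. The litter block called 1 T, NK and B cell marker and 1 proliferation marker higher in F. Leaving out 1 library called at most 2 erythroid and 1 adipocyte marker higher in M and 1 proliferation marker higher in F. Of the pancreas markers, Cela1 was the one tested and was higher in M, with Cpb1, Ins2 and Prss2 at 0 in every library and a sum of 12.03 to 25.6 CPM in M and 6.83 to 13.2 CPM in F. The part of these cell types in the hepatocyte results was not tested.

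Some genes with large sex differences also varied strongly among the females. Cyp2b13 in +/+ females was 1.92, 262, 1.61, 334, 250 and 647 CPM in replicates 1, 2, 3, 4, 5 and 7, while M values were 0.0927 to 0.812 CPM. A1bg in the same females was 1022, 1238, 738, 1451, 77.7 and 83.3 CPM. Thus replicates 1 and 3 were low for Cyp2b13 but not for A1bg, and replicates 5 and 7 were low for A1bg but not for Cyp2b13. Cyp2d9, a male-higher gene, was 6.57, 204, 3.84, 9.22, 13.7 and 227 CPM, highest in replicates 2 and 7. The +/t females also held 2 low values of Cyp2b13, 2.86 and 2.24 CPM in replicates 1 and 5, against 222 to 570 CPM in the other 4. Their Cyp2d9 ran from 5.24 to 222 CPM and their A1bg from 485 to 1482 CPM. These values belong to single animals, and oestrous stage and age were not given for them.

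The +/t siblings gave a second view of the same contrast in other animals. In 1 +/t library, M replicate 4, 68.0% of counts from 20 to 500 were even numbers, where the 13 +/+ liver libraries had 49.3 to 50.7%. In +/t liver, 1422 of 11714 autosomal genes (12.1%) were called, 723 (6.17%) higher in M and 699 (5.97%) higher in F (edgeR), and 1411 were called without that library. Of the 706 genes higher in M in +/+ liver, 693 had the same direction in +/t liver and 411 were also called there, which is 58.2% of the +/+ calls and 56.8% of the +/t calls. Of the 751 higher in F, 740 were tested in both, 717 had the same direction and 431 were called, 57.4% and 61.7% of the respective calls. No gene was called in opposite directions. The test of the difference itself, sex by genotype, called 0 of 12045 genes (0.00%) in edgeR, with 611 (5.07%) at an unadjusted p under 0.05, and 1 in DESeq2.

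The 5 genes with the smallest p of that test were Flt4, Kdr, Epg5, Mrc1 and Ptprb, of which 3 are described here. Flt4, the receptor of lymphatic growth factors, was at 15.1 to 21.1 CPM in M (median 19.2) against 21.4 to 27.8 CPM in F (median 26.2) in +/+ liver (log2 fold change -0.43 ± 0.10, edgeR adjusted p = 0.00761, and edgeR adjusted p = 0.085 with the litter block). It also lost its call when the library of M replicate 3 was exchanged for that of its sibling (edgeR adjusted p = 0.0767). In +/t liver it was at 19.5 to 27.6 CPM in M (median 24.3) against 13.8 to 28.3 CPM in F (median 19.1), a log2 fold change of 0.31 ± 0.14 (edgeR adjusted p = 0.168). The difference between the genotypes was 0.76 ± 0.12 (edgeR unadjusted p = 1.52e-05, adjusted p = 0.189). Kdr went from -0.32 ± 0.06 in +/+ to 0.24 ± 0.12 in +/t liver (edgeR unadjusted p of the difference = 0.000133, adjusted p = 0.828), and Ptprb, a phosphatase of endothelial cells, from -0.31 ± 0.07 (edgeR adjusted p = 0.192 with the litter block) to 0.09 ± 0.07 (edgeR unadjusted p = 0.000461, adjusted p = 0.858). None passed the adjustment.

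**Figure D5:**
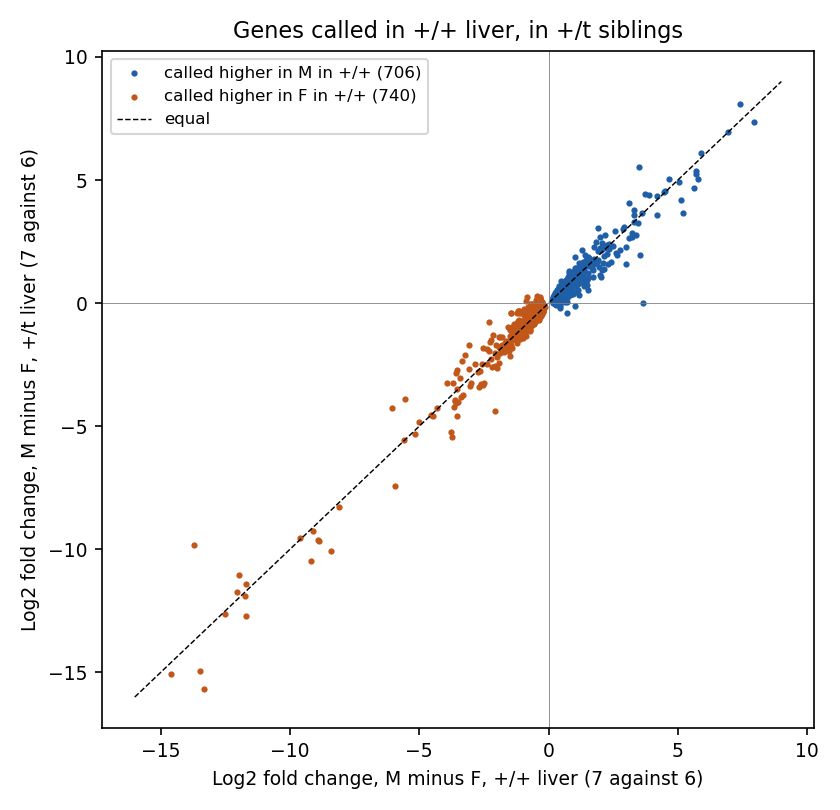
Log2 fold change of M over F in +/t liver (vertical axis) against that in +/+ liver (horizontal axis) for the autosomal genes called in +/+ liver, with the dashed line marking equal values. Of the 706 M-higher genes 693, and of 740 F-higher genes 717, have the same sign in both genotypes.

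Brain gave a tissue contrast to these livers. In 2 brain libraries, M replicate 3 and F replicate 4, 67.8% and 66.9% of counts from 20 to 500 were even numbers. In +/+ brain, 0 of 14748 autosomal genes (0.00%) were called in edgeR, with 477 (3.23%) at an unadjusted p under 0.05, and 3 were called in DESeq2. Without the 2 even-numbered libraries the edgeR count was 0 as well. Among genes called in liver, the median log2 fold change in brain was 0.00 for the 603 M-higher and -0.02 for the 621 F-higher genes tested there. The sex by tissue test called 443 of 15188 genes (2.92%), of which 204 (1.34%) were more M-biased and 239 (1.57%) more F-biased in liver than in brain. This test treated liver and brain libraries of the same animal as independent, since animals with both tissues were not blocked. Without those 2 brain libraries it called 337. Among the liver calls, 175 M-higher and 218 F-higher genes passed this test with the sign of the liver difference and none with the opposite sign. Nox4 differed by 5.46 ± 0.56 (edgeR adjusted p = 2.89e-07), being at 0.377 to 0.702 CPM in M brain and 0.264 to 0.755 CPM in F brain. Scara5 differed by 5.46 ± 0.54 (edgeR adjusted p = 1.97e-07), at 0.82 to 1.21 CPM in M brain and 1.01 to 1.58 CPM in F brain. Sult3a1 differed by -15.46 ± 2.68 (edgeR adjusted p = 0.000426), at 0 to 0.0866 CPM in M brain and 0 to 0.0495 CPM in F brain. Genes with no counts in brain give this test little information, so the test says least for the liver-specific members.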

How the data were processed

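Liver RNA was extracted with Trizol and a column with a DNase step and sequenced from stranded mRNA libraries, per the labels' protocols. Reads were aligned with STAR 2.5.1b to GRCm38 and counted per gene with featureCounts, per the submitters' processing notes. The strand setting of the counting, its annotation release and its filters were not given in the sources used here. The deposited values are raw counts per gene and library. Gene positions and names were taken from GENCODE M21, which matched 25472 of 25567 gene identifiers.

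Groups came from the sex, genotype and tissue labels. Counts were tested with edgeR 4.0.16 in R 4.3.3 (quasi-likelihood F test, TMM scaling, filterByExpr with a minimum count of 10) for 7 M against 6 F libraries. P-values were adjusted by Benjamini-Hochberg over all 12092 genes tested, sex chromosomes included, and the 11697 autosomal genes were read out at an adjusted p under 0.05. SE is the fold change divided by the square root of F. CPM values are counts scaled to a library of 1000000. The biological coefficient of variation was 18.0%. Counts of 0 were bounded with 3 counts over a group, and ratios have exact 95% intervals. Both cover counting error only. The sex by genotype test held the sibling pair as a block. The sex by tissue test held no block, although some animals gave both tissues. The steps were tested on simulated data with known changes.

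Litter labels pair M and F animals in 4 litters. Libraries alone in their litter do not inform the sex difference in the block fit. Deviations from the group mean correlated at 0.0462 to 0.253 in the 4 same-litter pairs and at -0.230 to 0.158 in the 38 others. The block result stands beside the main one where it ends a call or moves a count of calls by over 1.5 times. The labels name separate animals as replicates, and p-values measure the spread between them.

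Genes were named by a rule: the 12 largest non-overlapping differences in each direction at a mean log2 CPM of at least 1, up to 4 called members of each list per direction, all growth hormone and regulator genes, the most abundant calls and those with the smallest sex by genotype p or the largest difference from brain. A part of these is given. Cyp3a11, Cyp7a1, Cyp2e1 and Mup1 were added after their values were seen. The members, lists and tests were chosen with earlier results of these data known. Of the 111 genes described, 46 have a stretch of 100 bases or more that is at least 98% identical to another gene's transcript (blastn 2.17.0), 9 overlap another gene on the same strand and 9 on the opposite strand. For these the split of reads is uncertain. Alternatives were DESeq2 1.42.0, other scaling factors, other filters, the litter block, a 1.5-fold threshold and leaving out each library.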

Additional observations from a re-analysis of the deposited data

Results flagged for a closer look

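In 26 of 222 groups of one gene in one sex (11.7%), 1 library stood apart from the others of its group by Dixon's test at its 95% critical value. For normally distributed values, chance flags about 1 in 20 groups. The test was run on CPM without a log and on groups at or near 0 counts, so the 11.7% cannot be read against that rate. Most of the libraries that stood apart were high. Among M libraries, replicate 1 stood apart for Vnn1 at 6.17 CPM, Mbl2 at 347 CPM, Cyp3a41b at 0.243 CPM and Sult2a1 at 0.0812 CPM. M replicate 2 was high for Nox4 at 53.6 CPM, Cyp2c69 at 57.4 CPM and Ugt2b37 at 7.98 CPM. M replicate 3, the library with conflicting labels, was high for Ghr at 772 CPM, Cyp2a4 at 69.5 CPM, Acot3 at 8.80 CPM and Bhlhe41 at 19.2 CPM. M replicate 4 was high for Sult3a2 at 0.202 CPM and M replicate 7 for Cyp4a10 at 8.66 CPM. The values for Cyp3a41b, Sult2a1 and Sult3a2 are 1 to 3 counts in a library, in groups at or near 0.

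Among F libraries, replicate 1 was high for Cyp7b1 at 376 CPM and Ugt2b37 at 74.7 CPM, and replicate 2 for Fasn at 1994 CPM and Pnpla3 at 86.7 CPM. F replicate 3 was high for Scara5 at 1.16 CPM and Clec4f at 131 CPM. F replicate 4 was low for Abcb11 at 1079 CPM. F replicate 5 was high for Cish at 28.1 CPM and low for Cyp3a44 at 827 CPM. F replicate 7 was high for Jak2 at 26.1 CPM, Cyp4a10 at 92.2 CPM, Cyp39a1 at 90.9 CPM and Capn8 at 0.841 CPM.

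The difference between the sexes was itself different between +/+ liver and +/+ brain for 443 genes by the sex by tissue test in edgeR. Among the described genes the difference in log2 fold change, liver minus brain, was -15.46 for Sult3a1, 5.46 for Nox4, 5.34 for Nat8f6 and 5.46 for Scara5.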

How the results depend on the processing

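The number of genes called between M and F in +/+ liver was 1457 and stayed between 1230 and 1753 with DESeq2, other scaling factors, no filter, a minimum count of 50, autosomal genes only, all 26 liver libraries or the M replicate 3 library exchanged for that of its sibling. Leaving out 1 library gave 1128 to 1665 calls, 532 to 803 higher in M and 582 to 862 higher in F. The litter pairing, used as a block, gave 548 calls, 247 higher in M and 301 higher in F, and the threshold test at 1.5-fold gave 228, of which 102 higher in M and 126 higher in F. The block spends degrees of freedom on 9 litters and reads the sex difference only from the litters that held both sexes. The threshold test asks for a larger difference. DESeq2 called 3 genes in +/+ brain where edgeR called 0, 1 gene in the sex by genotype test where edgeR called 0, and 727 in the sex by tissue test where edgeR called 443. The cause was not tested. Leaving out the 2 even-numbered brain libraries, or the pair of the even-numbered +/t liver library, was added after seeing the data and gave 0 calls in brain, 337 in the sex by tissue test and 0 in the sex by genotype test. No described gene that was called changed direction under any alternative run. Genes named by the rule that were not called and changed sign with the litter block were Cish (-1.17), Onecut1 (-0.045), Foxa2 (-0.23), Igfbp4 (0.014) and Rora (-0.031). The block reads the sex difference from fewer animals than the main fit, without M replicates 6 and 7, where Cish was 47.3 and 47.4 CPM. With the M replicate 3 library exchanged, Nr1i3 (-0.091) and Rora (-0.023) changed sign. No further cause was tested. Leaving out 1 library also gave both signs for genes that were not called, -0.074 to 0.021 for Ezh1, -0.00038 to 0.39 for Foxa2, -0.23 to 0.14 for Lifr, -0.068 to 0.18 for Nr0b2, -0.22 to 0.16 for Nr1i3, -0.17 to 0.34 for Pparg, -0.13 to 0.0014 for Ptpn1 and -0.015 to 0.10 for Rora. Single libraries moved some called log2 fold changes by more than a 1.5-fold change, to -6.86 for Cyp2c69 without M replicate 2, -12.94 for Cyp3a41b and -14.64 for Sult2a1 without M replicate 1, -14.30 for Sult3a2 without M replicate 4, 5.38 for Cyp2d9 and -2.79 for Cyp4a10 without F replicate 7, -4.45 for Cyp4a10 without M replicate 7 and 5.73 for Scara5 without F replicate 3. Of the 100 described genes that were called, 87 kept the call with the litter block and 96 kept it whichever single library was left out. Some of the weaker calls were also lost elsewhere. Foxa1 and Stat5b lost theirs with all 26 liver libraries (edgeR adjusted p = 0.0777 and 0.084). Ghr lost its call with no filter and with autosomal genes only (edgeR adjusted p = 0.068 and 0.0508), and Nr1h4 with no filter (edgeR adjusted p = 0.0556). Cyp3a11, not called in the main fit, was called with DESeq2. Other scaling factors moved the median of all genes by less than 0.02 on the log2 scale. Counts near 0 in one sex limit the precision of the largest folds, and copies of a gene limit which member a read is credited to.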
